A study of Arabidopsis thaliana with 24 samples.

Results

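BCAT4, UGT74B1 and PYK10 are 3 Arabidopsis thaliana genes that act at the start of glucosinolate synthesis, late in it and in the breakdown of its products, and their transcript levels were followed through 8 groups of arrays. Each was chosen as the probe set annotated to that gene alone, which gave 3 of the 13513 probe sets with a single named gene and 3 of the 22746 probe sets tested. BCAT4 (AT3G19710) and PYK10 (AT3G09260) lie on chromosome 3, and UGT74B1 (AT1G24100) lies on chromosome 1. None of the 3 probe sets is of the kind whose name marks it as binding related transcripts.

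The study compared Col-0 wild type (WT) with the insertion mutant oas-a1.1, a single allele of OASA1, which encodes the main cytosolic enzyme of cysteine synthesis. Plants were moved from agar plates to hydroponic culture, and roots and shoots were collected separately. In each organ the groups were untreated WT, untreated oas-a1.1, cadmium-treated WT and cadmium-treated oas-a1.1, with 3 biological replicates each and 24 arrays in all. Treated roots had 18 h and treated shoots 24 h of cadmium chloride, so organ and hours cannot be told apart for the treatment. The cadmium dose is 50 µM in the series' design text and 50 mM in the sample protocols, and which is right was not settled. No probe set was annotated to OASA1 alone, and the transcript of the mutated gene was not followed here. All tissue was whole root or whole shoot, in which fewer cells of a type and less RNA per cell cannot be told apart.

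Glucosinolates are sulfur-rich defence compounds of the cabbage family. BCAT4, a branched-chain aminotransferase, starts the lengthening of methionine from which the aliphatic glucosinolates are made. UGT74B1 is the glucosyltransferase that adds glucose to the thiohydroximate late in the building of the core structure, for aliphatic and indolic compounds alike. PYK10, also called BGLU23, is a beta-glucosidase stored in endoplasmic reticulum (ER) bodies, which are abundant in roots, and it can hydrolyse glucosinolates when tissue is damaged. Sulfur for these compounds comes from sulfate assimilation, the pathway that also supplies cysteine and glutathione.

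Levels are given as the deposited log2 values, in which 1 unit is a doubling, and a called difference is one with a limma p adjusted over all 22746 probe sets of under 0.05. The median of an array ran from 5.32 to 5.47 and its lowest value from 3.27 to 3.50. Across groups the arrays also parted on their 25S ribosomal RNA control, which read 4.62 to 6.0 on 8 arrays and 7.72 to 11.96 on the other 16. The low arrays were 3 of roots and 5 of shoots, and 6 of the 8 were numbered replicate 1. In roots these were replicate 1 of every group but untreated WT. In shoots they were replicates 1 and 2 of untreated WT and of treated mutant, and replicate 1 of treated WT. No untreated mutant shoot array was low, so the shoot groups were not balanced for 25S. The tissue labels were read against fixed markers. RCA, the activase of Rubisco and the only measured shoot marker of 12, averaged 12.44 in untreated WT shoots and 6.29 in untreated WT roots. EXPA7 and EXPA18, expansins of root hairs and the only measured root markers of 10, were higher in untreated WT roots than in WT shoots by 2.59 and 1.64.

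PYK10 was the most divided of the 3 genes between the organs. On the 3 untreated WT root arrays it read 11.98, 11.86 and 12.13, and on the untreated WT shoot arrays 4.31, 4.19 and 4.51. In untreated oas-a1.1 it read 11.86, 12.11 and 12.12 in roots and 4.43, 4.59 and 4.31 in shoots. The ranges of the organs did not come near each other in either genotype. Roots exceeded shoots by 7.65 ± 0.11 (SE) in WT and by 7.59 ± 0.11 in the mutant, about 201-fold and 192-fold (limma adjusted p = 4.63e-21 and 5.49e-21). Over all conditions PYK10 stayed within 4.19 to 4.67 on the 12 shoot arrays, under the median of every array. No detection call was used here, so whether the shoot signal lies above background was not tested, and the fold may understate the difference.

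BCAT4 and UGT74B1 showed no called difference between untreated organs. BCAT4 read 9.89, 9.6 and 10.01 in untreated WT roots and 10.40, 10.45 and 9.83 in untreated WT shoots. Its ranges overlapped, and the root minus shoot difference was -0.39 ± 0.34 in WT (adjusted p = 0.392) and -0.68 ± 0.34 in the mutant (adjusted p = 0.115). UGT74B1 read 8.30, 7.35 and 7.76 in untreated WT roots and 8.69, 8.97 and 7.83 in untreated WT shoots. Its difference was -0.69 ± 0.31 in WT (adjusted p = 0.0818) and -0.38 ± 0.31 in the mutant (adjusted p = 0.358). The WT value became a call without root replicate 1 (-0.94, adjusted p = 0.0304) or without shoot replicate 3 (-1.03, adjusted p = 0.0121), and the mutant value of BCAT4 without shoot replicate 3 (-0.94, adjusted p = 0.0456). Thus 1 of the 3 genes was called in each genotype, against a background of 44.2% of probe sets called between WT organs, 23.1% in the direction of roots, and 45.2% and 24.1% in the mutant.

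**Figure D1:**
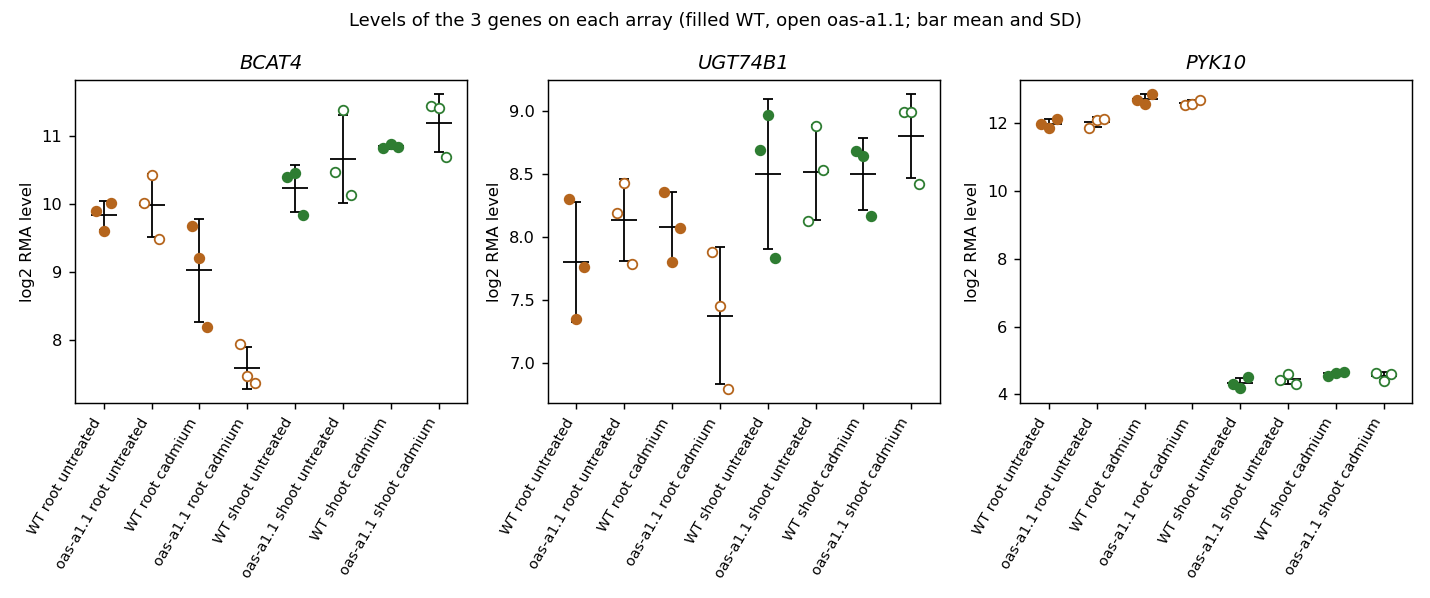
Log2 levels of BCAT4, UGT74B1 and PYK10 on each of the 24 arrays, by group (filled points WT, open points oas-a1.1, brown roots, green shoots, replicates 1 to 3 from left to right), with the group mean and SD as bars. PYK10 lies at 11.86 or above on every root array and at 4.67 or below on every shoot array, and BCAT4 is lowest on the 3 arrays of cadmium-treated mutant roots; each panel has its own axis.

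The order of the 8 groups differed among the 3 genes. BCAT4 ran from 11.18 ± 0.42 (SD, n = 3) in cadmium-treated mutant shoots down to 7.6 ± 0.31 in cadmium-treated mutant roots, with all 4 shoot groups above all 4 root groups. From the top to untreated WT roots, at 9.83 ± 0.21, every neighbour in that order overlapped the next and differed from it by less than the larger SD. The last steps were wider: cadmium-treated WT roots, at 9.02 ± 0.76, lay 0.81 below untreated WT roots with overlapping ranges, and cadmium-treated mutant roots lay a further 1.42 below with no overlap. UGT74B1 ran from 8.80 ± 0.33 in cadmium-treated mutant shoots to 7.38 ± 0.54 in cadmium-treated mutant roots, and no neighbouring groups differed by more than their SD. PYK10 had wide steps only between cadmium-treated and untreated roots (0.57) and between roots and shoots (7.37).

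The genes that PYK10 works with were mostly root genes as well. Of the 7 measured entries of the list of ER bodies and the PYK10 complex, out of 17, 6 were called higher in roots in both genotypes. PYK10 itself is 1 of these 6. Of all probe sets, 23.1% were called higher in roots in WT and 24.1% in the mutant. The median difference of the list, with PYK10 counted in it, was 4.81 in WT and 4.61 in the mutant, beside 0.04 and 0.06 over all probe sets. A median without PYK10 was not computed. NAI2, a protein needed for ER bodies to form, was higher by 6.14 ± 0.20 in WT roots. JAL34 and JAL33, jacalin-related lectins found in the PYK10 complex, were higher by 5.48 ± 0.31 and 4.81 ± 0.22, and the related JAL22 by 2.44 ± 0.22. NAI1, the bHLH transcription factor on which PYK10 expression depends, was higher by 1.37 ± 0.23 in WT and 0.65 ± 0.23 in the mutant. JAL23 alone had no call, at -0.24 ± 0.36 in WT.

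The measured genes of glucosinolate synthesis were read in the same way, where 21.2% of all probe sets were called lower in roots in each genotype. In the core-structure list, 2 of the 3 measured entries of 17 were lower in roots than in shoots in both genotypes, and the third was UGT74B1. These were GSTU20, a glutathione transferase placed in aliphatic core synthesis, by -2.22 ± 0.24 in WT and -2.80 ± 0.24 in the mutant, and AT2G31790, entered by locus, by -0.66 ± 0.23 and -0.76 ± 0.23. AOP1, a dioxygenase gene of the AOP locus of side chain modification, was lower in roots as well, at -1.11 ± 0.10 in WT and -2.19 ± 0.10 in the mutant, while AOP3 of the same list read 0.03 and 0.06 with no call. GTR1, a glucosinolate transporter, stood at -1.61 ± 0.28 and -2.52 ± 0.28, whereas GTR2 read 0.30 in both genotypes with no call. Over all 20 measured pathway genes other than the 3 members, 9 were called higher and 5 lower in WT roots, and 8 higher and 5 lower in mutant roots. The median difference was 0.25 in each. Of all probe sets, 23.1% were called higher in WT roots and 24.1% in mutant roots.

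**Figure D2:**
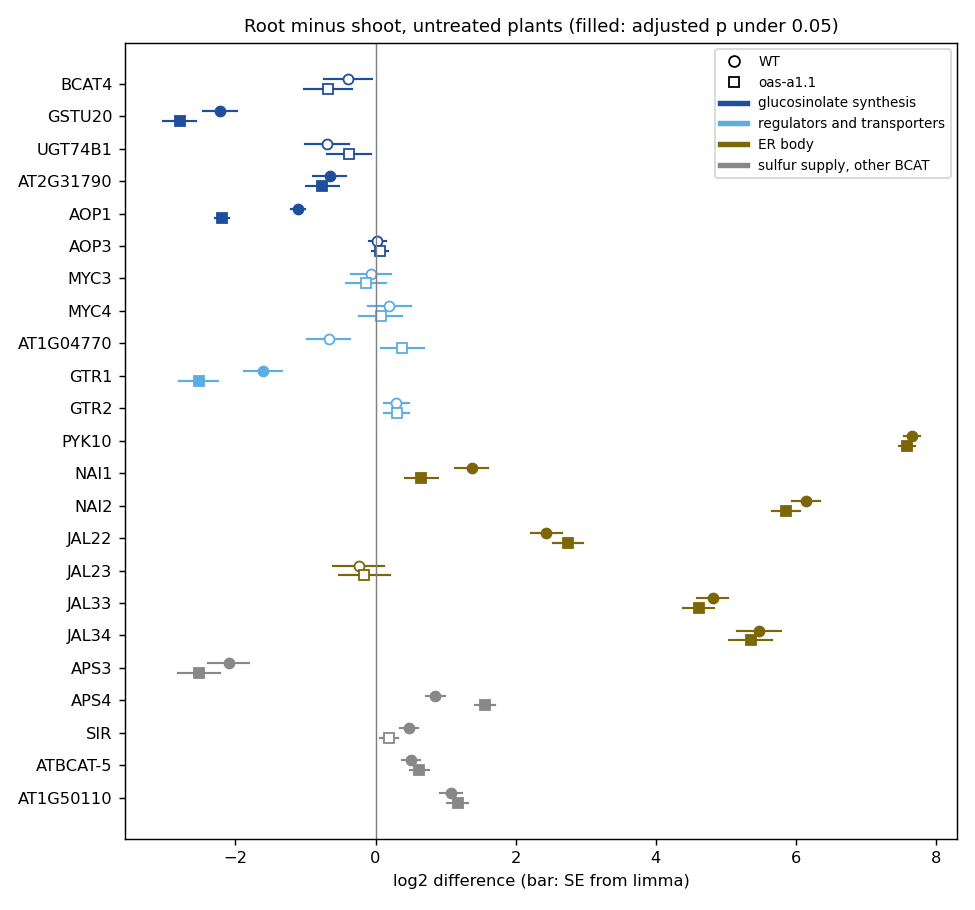
Root minus shoot log2 difference in untreated plants for the 3 genes and the 20 other measured pathway genes (circles WT, squares oas-a1.1, filled where the adjusted p is under 0.05, bars the SE from limma). PYK10 lies farthest to the right at 7.65 and 7.59, followed by NAI2, JAL34 and JAL33, while GSTU20, GTR1 and APS3 lie farthest to the left.

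Untreated mutant roots were compared with untreated WT roots to show what the mutation does by itself. None of the 3 genes was called, where 0.356% of all probe sets were, and 0 of 3 had an unadjusted limma p under 0.05. BCAT4 read 10.02, 10.42 and 9.49 in the mutant, on both sides of the WT arrays, with a difference of 0.14 ± 0.34 (adjusted p = 1). UGT74B1 read 8.19, 8.43 and 7.79 in the mutant, a difference of 0.33 ± 0.30 whose 95% interval ran from -0.33 to 0.99. PYK10 differed by 0.04 ± 0.12. Of the 20 other pathway genes 0 were called by limma and 3 had an unadjusted p under 0.05, namely AT2G31790 (0.64), APS4 (0.70) and APS3 (-0.62), the last 2 being ATP sulfurylases, which activate sulfate.

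In WT roots cadmium raised PYK10 and left BCAT4 and UGT74B1 without a call. PYK10 read 12.70, 12.56 and 12.85 on the treated arrays, all above the 3 untreated ones. It rose by 0.71 ± 0.12, or 1.64-fold (adjusted p = 0.00694). BCAT4 read 9.68, 9.20 and 8.19 under cadmium. The last of these arrays lay far below the others and the first within the untreated range. The difference was -0.81 ± 0.34 (adjusted p = 0.293), and it was -0.39 without treated replicate 3 (adjusted p = 0.817) and -1.14 without treated replicate 1 (adjusted p = 0.089). UGT74B1 read 8.36, 7.80 and 8.07, overlapping the untreated arrays, and differed by 0.27 ± 0.30 (adjusted p = 0.79). The single call among the 3 stood against 3.91% of all probe sets called and 1.64% called higher.

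In oas-a1.1 roots BCAT4 fell and PYK10 rose under cadmium. BCAT4 read 7.95, 7.48 and 7.37, all far below the lowest untreated mutant array at 9.49. It fell by 2.38 ± 0.34, or 5.19-fold, with a 95% interval from -3.13 to -1.62 (adjusted p = 0.0027). The call held without each of the 6 arrays in turn, where the difference ran from -2.62 to -2.16, and on the root arrays with high 25S alone (-2.53, adjusted p = 0.0109). UGT74B1 read 7.88, 7.45 and 6.80, with the highest treated array inside the untreated range, and its difference was -0.76 ± 0.30 (adjusted p = 0.257).

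PYK10 read 12.54, 12.58 and 12.68 in the treated mutant roots, again above every untreated array. It rose by 0.57 ± 0.12, or 1.48-fold (adjusted p = 0.0196). This call was lost without untreated replicate 1 (0.49, adjusted p = 0.074), treated replicate 2 (0.58, adjusted p = 0.0571) or treated replicate 3 (0.53, adjusted p = 0.0709), and on high 25S arrays alone (0.52, adjusted p = 0.131). The WT rise of PYK10 kept its call without each array and on high 25S arrays (0.72, adjusted p = 0.0229). In the mutant, 4.26% of all probe sets were called, 2.46% higher and 1.81% lower, beside 2 of the 3 genes.

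Markers of tissue were read beside these changes in roots. RCA was called higher in treated WT roots, by 1.24 ± 0.30 (adjusted p = 0.0455), with levels of 7.10 to 7.77 against 6.12 to 6.54 untreated. That call was lost without any 1 of the 3 untreated arrays or of treated replicates 2 and 3, where the adjusted p reached 0.166. In mutant roots RCA ran from 6.80 to 7.06 treated and from 6.03 to 7.39 untreated, a difference of 0.36 ± 0.30. EXPA7 differed by 0.09 in WT and 0.08 in the mutant and EXPA18 by 0.52 and 0.35, with no call. The part of tissue composition in the PYK10 and BCAT4 differences was not tested.

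Under cadmium the genotypes were compared in roots directly. BCAT4 was lower in each mutant array (at most 7.95) than in each WT array (at least 8.19). The difference was -1.42 ± 0.34 with a 95% interval from -2.18 to -0.67, and its adjusted p of 0.0709 missed the threshold. With the replicate number as a block over all 12 root arrays, the adjusted p was 0.0337. Deviations of same-numbered arrays correlated at 0.64, 0.11 and 0.22 in this comparison. For replicate 2 they correlated at -0.11 between untreated genotypes, and at -0.15 and 0.02 between treated and untreated WT and mutant roots. Support for a block shared by these arrays was thus uneven. Without treated WT replicate 3, the lowest WT array, the difference was -1.84 (adjusted p = 0.0152). The other 5 of the 6 fits that left out 1 array each gave no call (adjusted p of up to 0.216). Of 9 further alternatives, 3 also gave no call (adjusted p of up to 0.2). UGT74B1 differed by -0.70 ± 0.30 (adjusted p = 0.411), with mutant arrays reaching into the WT range, and PYK10 by -0.10 ± 0.12 (adjusted p = 0.928). In limma 0 of the 3 genes were called, where 1.74% of all probe sets were. An unadjusted p under 0.05 was found for 2 of the 3, and the share of all probe sets at that level was not computed.

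Whether cadmium acted differently in mutant and WT roots was tested as an interaction. The cadmium difference in the mutant minus that in WT was -1.57 ± 0.49 for BCAT4 (adjusted p = 0.236) and -1.03 ± 0.42 for UGT74B1 (adjusted p = 0.474). For PYK10 the term was -0.14 ± 0.17 with an interval from -0.51 to 0.22, so a rise of equal size in both genotypes lies inside it. Limma called 0 of the 3, where 0.747% of all probe sets were called. At an unadjusted p under 0.05 there were 2 of the 3, and the share of all probe sets at that level was not computed. The call of BCAT4 in mutant roots and its absence in WT roots are therefore not shown to differ at the threshold used.

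**Figure D3:**
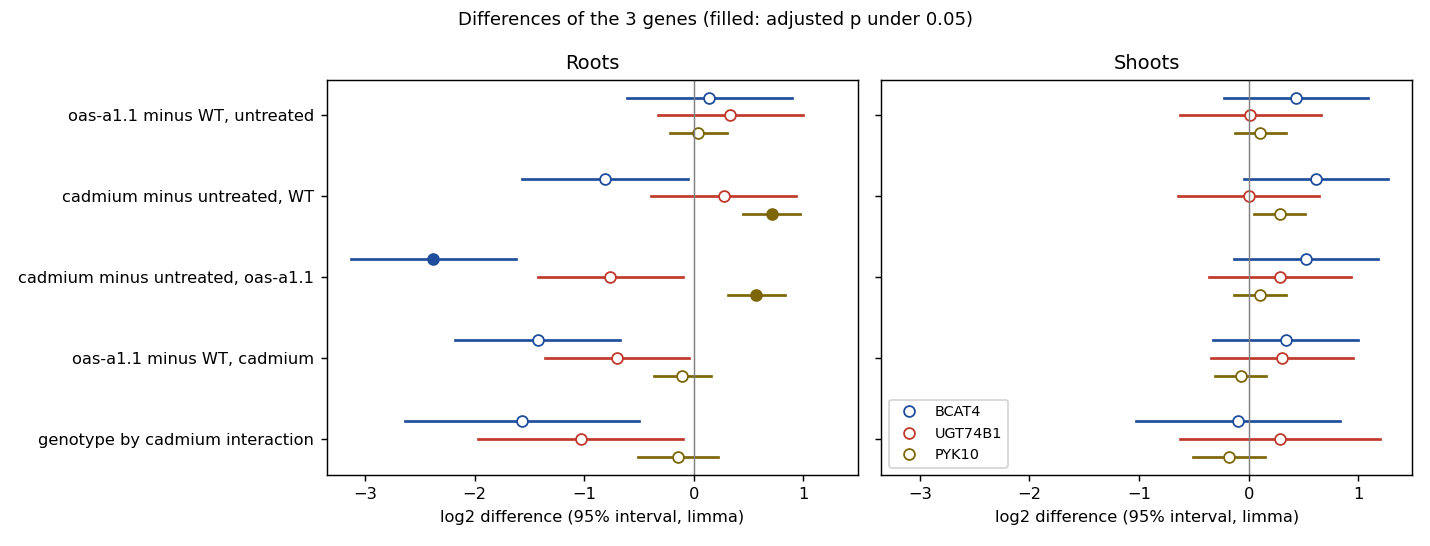
Log2 differences of BCAT4, UGT74B1 and PYK10 with 95% intervals from limma in the 5 comparisons of each organ (filled where the adjusted p is under 0.05). The 3 filled points are the fall of BCAT4 by 2.38 in cadmium-treated mutant roots and the rises of PYK10 by 0.71 in WT and 0.57 in mutant roots; no point is filled in shoots.

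Other genes of synthesis were read beside BCAT4 in roots. AT2G31790 read 6.26, 6.04 and 6.46 in untreated and 6.28, 5.97 and 6.23 in treated WT roots. In the mutant it read 6.87, 6.97 and 6.83 untreated and 5.21, 5.58 and 5.85 treated. It thus stood highest in untreated and lowest in treated mutant roots. Under cadmium it fell by 1.34 ± 0.17 in the mutant (adjusted p = 0.00103), and its difference in WT was -0.09 ± 0.17. Its interaction was -1.25 ± 0.24 (adjusted p = 0.041). Leaving out 1 array removed this call for 10 of the 12 root arrays (adjusted p up to 0.116), all but untreated WT replicate 3 and treated mutant replicate 3, as did taking high 25S arrays alone (adjusted p = 0.114), quantile normalization (0.0641), the model of all 24 arrays (0.0565) and the trended prior (0.0528).

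GSTU20 differed by -0.56 ± 0.17 in WT roots and -0.58 ± 0.17 in mutant roots with no call (adjusted p = 0.118 and 0.103). Its treated and untreated arrays did not overlap in either, but the share of all probe sets without overlap was not computed. AOP1 and AOP3, of side chain modification, moved by no more than 0.24 in either genotype. Both lay under the median of every array in roots, and whether they lie above background was not tested. ATBCAT-5 and AT1G50110, entered as other branched-chain aminotransferases, differed by -0.14 and 0.73 in WT roots. The second was called (adjusted p = 0.0492) and lost its call without any 1 of the 6 arrays (adjusted p from 0.0538 to 0.188), and read 0.60 ± 0.18 in the mutant (adjusted p = 0.107).

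Among regulators and transporters, AT1G04770, entered by locus, rose in treated WT roots from 6.71, 6.21 and 6.19 to 8.50, 7.97 and 7.94. The rise was 1.77 ± 0.34 (adjusted p = 0.0143, and 0.065 without untreated replicate 2), and its mutant difference was 1.00 ± 0.34 (adjusted p = 0.156). MYC3 and MYC4, bHLH factors that act with the MYB regulators of glucosinolate genes, differed by -0.12 and 0.43 in WT and by -0.20 and -0.41 in the mutant, all without a call. GTR1 and GTR2 differed by 0.20 and 0.42 in WT roots, also without one.

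In the ER body list, JAL33 was the only measured gene besides PYK10 called in roots under cadmium. It read 9.0, 9.79 and 9.30 untreated and 10.61, 10.69 and 10.25 treated in the mutant, a rise of 1.15 ± 0.24 (adjusted p = 0.0182). The call was lost without untreated replicate 1 or 3 or treated replicate 1 or 2 (adjusted p of up to 0.072), and on high 25S arrays alone (0.14). In WT roots JAL33 read 9.75, 9.54 and 9.02 untreated and 10.04, 10.39 and 10.52 treated, 0.88 ± 0.24 higher (adjusted p = 0.0696). NAI1, NAI2 and JAL34 differed by 0.21, -0.26 and 0.08 in WT and by 0.17, 0.11 and 0.04 in the mutant, and JAL22 by 0.68 and 0.45, with no call.

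Sulfur supply was covered by 3 measured genes of 15. APS3 rose by 1.07 ± 0.26 in treated mutant roots (adjusted p = 0.0394), a call that was kept only without treated replicate 2 among the 6 arrays and reached an adjusted p of 0.153 otherwise. Of 9 further alternatives, 7 kept it (limma adjusted p of up to 0.176). APS4 differed by -0.17 in the same roots and SIR, sulfite reductase, by -0.01. Over the 20 other pathway genes, limma called 2 higher and 0 lower in treated WT roots, and 2 higher and 1 lower in treated mutant roots. Of all probe sets, 3.91% were called in WT, 1.64% higher. In the mutant 4.26% were called, 2.46% higher and 1.81% lower. The median differences of the 20 genes were 0.21 and 0.04, beside 0.02 and -0.01 over all probe sets. Between treated genotypes 0 of the 20 were called, where 1.74% of all probe sets were. An unadjusted p under 0.05 was found for 2, AT2G31790 (-0.61) and MYC4 (-0.83), and the share of all probe sets at that level was not computed.

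**Figure D4:**
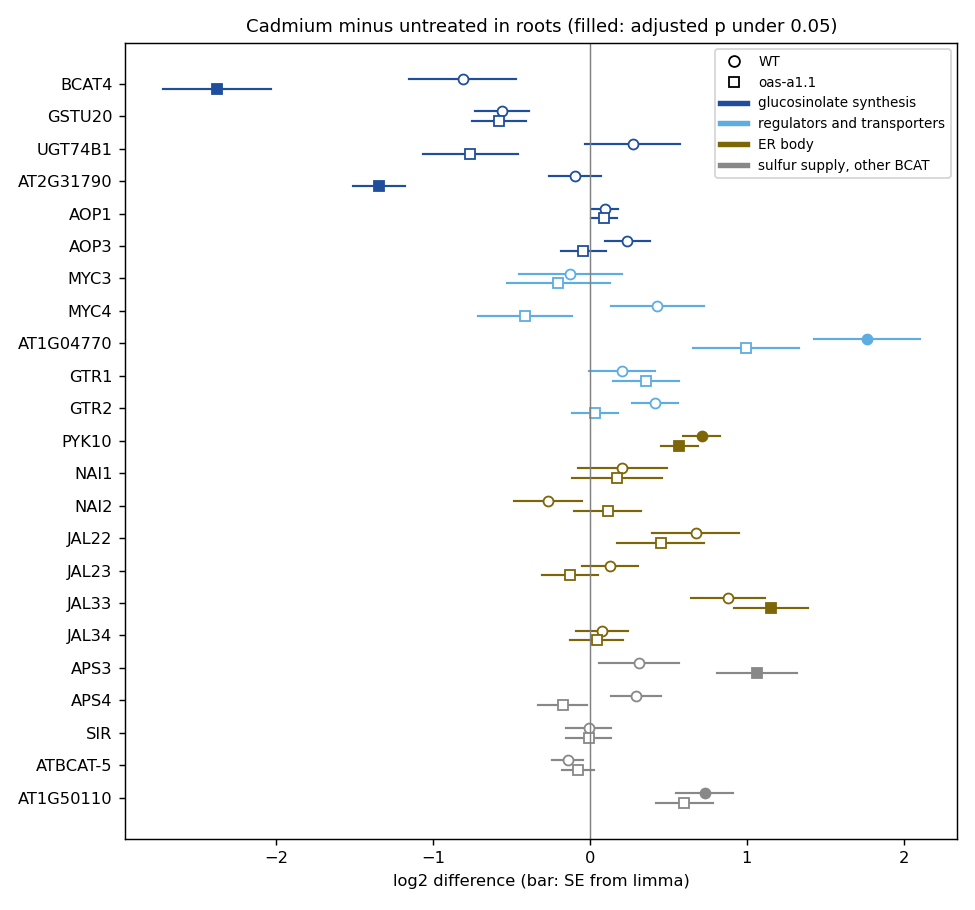
Cadmium minus untreated log2 difference in roots for the 3 genes and the 20 other measured pathway genes (circles WT, squares oas-a1.1, filled where the adjusted p is under 0.05, bars the SE from limma). BCAT4 and AT2G31790 are filled on the left in the mutant alone, at -2.38 and -1.34, and PYK10 is filled on the right in both genotypes.

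None of the 3 genes was called in any comparison within shoots. Under cadmium BCAT4 read 10.82, 10.88 and 10.83 in WT shoots, above the 3 untreated arrays, with a difference of 0.62 ± 0.30 (adjusted p = 0.323). In the mutant it read 10.47, 11.37 and 10.13 untreated and 11.44, 11.41 and 10.69 treated, overlapping, with a difference of 0.52 ± 0.30 (adjusted p = 0.506). The sign of both was opposite to that in roots, but hours differed between the organs and the responses were not tested against each other.

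UGT74B1 in WT shoots read 8.68, 8.64 and 8.17 under cadmium, and the difference from untreated was 0.00 ± 0.29. In mutant shoots it read 8.13, 8.88 and 8.53 untreated and 8.99, 8.99 and 8.42 treated, a difference of 0.29 ± 0.29 (adjusted p = 0.783). PYK10 read 4.56, 4.63 and 4.67 in treated WT shoots, all above the untreated arrays, at a difference of 0.28 ± 0.11 (adjusted p = 0.175). In treated mutant shoots it read 4.62, 4.41 and 4.61, and the difference was 0.10 ± 0.11 (adjusted p = 0.784).

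Between genotypes, untreated mutant shoots differed from WT shoots by 0.43 for BCAT4, 0.02 for UGT74B1 and 0.11 for PYK10 (adjusted p = 0.604, 0.994 and 0.768). Under cadmium the same differences were 0.34, 0.30 and -0.07 (adjusted p = 0.849, 0.864 and 0.926). The interactions in shoots were -0.09 ± 0.42 for BCAT4, 0.29 ± 0.41 for UGT74B1 and -0.18 ± 0.15 for PYK10. The limma calls of 0 among the 3 genes stood against 1.46% of probe sets called for the untreated mutant, 5.58% for cadmium in WT, 2.18% for cadmium in the mutant, 0.154% for the treated genotypes and 0.444% for the interaction. At an unadjusted p under 0.05 there was 1 gene in the cadmium comparison of WT shoots, PYK10, and 0 in each of the others. The effect of the mutation in untreated roots differed from that in shoots by -0.29 for BCAT4, 0.32 for UGT74B1 and -0.07 for PYK10. Again 0 were called, where 0.761% of probe sets were, and 0 had an unadjusted p under 0.05.

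Among the 20 other pathway genes the calls in shoots fell on AOP1 and GSTU20. There was 1 for the untreated mutant, 2 for cadmium in WT, 1 for cadmium in the mutant and 1 for the interaction. Of all probe sets, 1.46%, 5.58%, 2.18% and 0.444% were called in the same order. AOP1 read 5.40, 5.37 and 5.40 in untreated WT shoots and 6.70, 6.33 and 6.42 in untreated mutant shoots, a difference of 1.09 ± 0.12 (adjusted p = 0.00336). Under cadmium it read 6.29, 6.23 and 6.34 in WT, a rise of 0.90 ± 0.12 (adjusted p = 0.00237), and 6.31, 6.45 and 5.98 in the mutant, where the difference was -0.24 ± 0.12 (adjusted p = 0.459). Untreated WT shoots were thus the low group of the 4. In roots AOP1 averaged between 4.28 and 4.38 in every group, under the median of every array, and was not tested against background.

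GSTU20 rose under cadmium from 8.08, 7.86 and 8.06 to 9.24, 9.08 and 9.51 in WT shoots, by 1.28 ± 0.27 (adjusted p = 0.02), a call lost without untreated replicate 1 or 2 or treated replicate 3 (adjusted p of up to 0.0821). In mutant shoots it rose from 8.39, 9.52 and 8.27 to 10.14, 9.74 and 9.96, by 1.22 ± 0.27 (adjusted p = 0.0443), and untreated replicate 2 was the single array whose removal left the call in place (adjusted p of up to 0.165 without another). JAL23 differed by 1.51 ± 0.45 and 1.47 ± 0.45 in WT and mutant shoots with no call (adjusted p = 0.0861 and 0.146). GTR1 was 1.24 ± 0.31 higher in treated mutant than in treated WT shoots, likewise without a call (adjusted p = 0.184). Limma called 0 of the 20 genes in that comparison, where 0.154% of all probe sets were called. An unadjusted p under 0.05 was found for 2 of the 20, and the share of all probe sets at that level was not computed.

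The 3 genes varied over different ranges within an organ. On the 12 root arrays BCAT4 spanned 3.05 units, UGT74B1 1.63 and PYK10 0.99, and on the 12 shoot arrays 1.61, 1.16 and 0.48. As a description over the 12 root arrays, which include the treatment groups, Pearson's r was 0.64 between BCAT4 and UGT74B1, -0.72 between BCAT4 and PYK10 and -0.19 between UGT74B1 and PYK10. Over the 12 shoot arrays the values were 0.67, 0.45 and -0.22. Between BCAT4 and UGT74B1 r was thus positive in both organs, while r of BCAT4 and PYK10 was negative in roots and positive in shoots. No distribution of r over all genes was set beside these. In WT the cadmium differences of BCAT4 and UGT74B1 were -0.81 and 0.27 in roots and 0.62 and 0.0 in shoots. In the mutant they were -2.38 and -0.76 in roots and 0.52 and 0.29 in shoots. PYK10 in shoots lay under the median of every array, and its signal was not tested against background. Its shoot r is therefore not read as a change of sign between organs.

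By the same measure the named genes closest to each member were listed over the 12 arrays of an organ. In roots BCAT4 was nearest to AT1G21440 (r = 0.968), TOPII, a topoisomerase (0.949), and AT4G22212 (0.943). AT1G21440 averaged 10.35 and 10.15 in untreated WT and mutant roots, 9.14 in treated WT and 8.09 in treated mutant roots. UGT74B1 was nearest in roots to AT1G52540 (0.930), AT3G06150 (0.925) and AT5G20290 (0.923).

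PYK10 was nearest in roots to OCT1, a carnitine transporter (0.954), AT4G13010 (0.948) and AT5G38020 (0.947). OCT1 averaged 4.25 and 4.29 in untreated WT and mutant roots and 6.93 and 6.51 in treated ones. In shoots the nearest genes were AT4G31060, RAP and AT5G15610 for BCAT4 (0.912, 0.899 and 0.894), AT1G71210, AT1G80870 and AT5G57120 for UGT74B1 (0.917, 0.915 and 0.911), and AT1G71480, AT1G35420 and AT1G76460 for PYK10 (0.915, 0.896 and 0.894). No gene was among the 3 nearest of a member in both organs. The r values of the genes nearest to PYK10 in shoots rest on its own low signal there, which was not tested against background. AT4G31060, AT1G71210 and AT1G80870 also lay under the median of every shoot array, at no more than 4.94, 5.20 and 4.98. OCT1 averaged under the median of every array in untreated roots. Whether these signals lie above background was not tested.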

How the data were processed

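Total RNA of 24 samples was hybridised to Affymetrix ATH1 arrays. The authors deposited log2 values, and the submitters' processing notes name RMA and affy, with versions not given in the sources used here. The labels do not say which arrays were normalized jointly. No further normalization was applied, and all columns matched a sample label. The 64 control probe sets were left out and 22746 tested, with no filter on level. Genes were named where a probe set had a single gene in the annotation given with the series (13513; 503 had several and 8730 none), and 13436 matched a RefSeq gene table. No coordinates or sequences were used here, and a planned promoter motif search was not run.

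Each organ was fitted in limma 3.58.1 (R 4.3.3) as 4 group means over 12 arrays, with empirical Bayes moderation. Organs were compared in a model of 24 arrays, in untreated plants only. Two-sided p values received a Benjamini-Hochberg adjustment over all 22746 probe sets of a comparison. Comparisons that share a group are not independent. SD describes 3 arrays and SE comes from the model; the number of arrays limits the precision. The script was tested on simulated data.

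The 3 genes, 10 gene lists and tests were chosen with earlier results of these data known. The lists cover side chain elongation, core structure, side chain modification, regulators and transporters, breakdown, ER bodies, sulfur supply, branched-chain aminotransferases and markers of root and shoot. Of 113 pathway genes 23 were measured, the 3 members included, with 1 of 10 for elongation, BCAT4 itself, and 0 of 19 for breakdown. Named genes are the members, called list genes, up to 4 uncalled genes per list in list order, and for each member the 3 genes with the highest Pearson r per organ; further uncalled genes were named after their values were seen. Genes without a symbol in the annotation are given by locus.

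Deviations from group means over all probe sets were correlated between same-numbered replicates. Every pair passed the cutoff of 0.1 only between treated mutant and treated WT roots (0.64, 0.11 and 0.22), so the blocked value stands beside that result. Each other comparison had a pair under it. The block was fitted over all 12 root arrays, and so also covered root pairs under the cutoff. Alternatives were a level filter, median centring, quantile normalization again, a trended robust prior, a fit of all 24 arrays or of the compared groups alone, the replicate block, the 25S level as a covariate and each array left out. Root arrays with 25S at 7 or more were an alternative added after the data were seen.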

Additional observations from a re-analysis of the deposited data

Results flagged for a closer look

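3 differences between groups passed a test of the difference itself, none of them in BCAT4, UGT74B1 or PYK10. Of all probe sets, 0.747% were called for the interaction in roots, 0.444% for that in shoots and 0.761% for the mutation effect between organs. The cadmium response of AT2G31790 differed between mutant and WT roots by -1.25 (limma interaction, adjusted p = 0.041), a call kept in 2 of the 12 fits that left out 1 array each (adjusted p of up to 0.116) and lost under 4 other alternatives. The cadmium response of AOP1 differed between mutant and WT shoots by -1.13 (adjusted p = 0.0216), and 5 of the 12 shoot arrays, left out singly, removed this call (adjusted p of up to 0.0721). The mutation effect on AOP1 in untreated roots minus that in untreated shoots was -1.08 on the log2 scale (adjusted p = 0.00108), and was called without each of the 12 arrays. AOP1 averaged 4.28 to 4.38 in the root groups, under the median of every array. Whether that signal lies above background was not tested, so an effect in roots could have gone unseen.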

How the results depend on the processing

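Of 39 results of the 3 genes, 5 were called, and 583 of 601 alternative values stayed on the same side of the threshold without reversing a call. The fall of BCAT4 in cadmium-treated mutant roots, the rise of PYK10 in treated WT roots and both organ differences of PYK10 kept their calls under every alternative run; PYK10 in shoots lay under the level filter, which gave no value there. The rise of PYK10 in treated mutant roots lost its call with the compared arrays alone (0.57, adjusted p = 0.0558) and with high 25S arrays alone (0.515), and ran from 0.485 to 0.615 with each array left out. BCAT4 in treated mutant against treated WT roots became a call with the level filter (-1.42, adjusted p = 0.0326), the replicate block (-1.42), all 24 arrays (-1.42), the trended prior (-1.42), median centring (-1.41) and quantile normalization (-1.45), and ran from -1.84 to -1.095 with each array left out. UGT74B1 between WT organs became one with median centring (-0.68) and the replicate block (-0.69; leave-out range -1.03 to -0.457), and BCAT4 between mutant organs with the block (-0.68; leave-out range -0.943 to -0.323). The block changed no other call of the 3 genes. GSTU20 in treated mutant shoots lost its call under it (1.22, adjusted p = 0.0619). Of the 8 alternatives for GSTU20 there that kept all arrays, the block included, only 5 kept the call (adjusted p of up to 0.145). Another 16 values, in 9 results with no call, changed sign. The causes of these moves were not tested. Between untreated organs the counts of called probe sets over the whole array were 10060 (8455 to 10664 over the alternatives) in WT and 10284 (8470 to 11043) in the mutant. The counts of all other comparisons moved by over 1.5 times. In roots they were 81 (17 to 246 over the alternatives) for the untreated mutant, 889 (428 to 1547) and 970 (578 to 1516) for cadmium in WT and mutant, 395 (116 to 689) for the treated genotypes and 170 (39 to 441) for the interaction. In shoots they were 331 (45 to 838), 1270 (611 to 1702), 496 (227 to 768), 35 (13 to 88) and 101 (23 to 607) in the same order, and 173 (71 to 394) for the mutation effect between organs. Each group held 3 arrays, which limits what could be called.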
